A study of Mus musculus with 23 samples.

Results

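Interferon-stimulated genes are the antiviral and immune effector genes that cells switch on after sensing interferons, and here they were followed in the lungs of adult mice through a list of 44 genes given by symbol. Of these, 42 had a row among the 35322 genes of the expression table, 41 were expressed enough to be tested (Oas1a was not) and Mx1 and Mx2 were not analysed here. The 23 libraries came from the right lung of female BALB/c offspring aged 13 weeks, whose dams had received saline or fine particulate matter (PM2.5) from before mating through gestation and lactation. The offspring were sensitised and challenged with ovalbumin (OVA), which produces allergic airway inflammation, or received vehicle, giving 7 Sham, 7 PM, 5 Sham-OVA and 4 PM-OVA libraries. The vehicle is PBS in the sample labels and saline in the study's methods. Each library was made from whole tissue, so fewer cells of a type and less RNA per cell cannot be told apart in any value that follows.

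Type I interferons signal through Ifnar1 and Ifnar2 to a complex holding Stat2 and Irf9 that binds the interferon-stimulated response element (ISRE), a short DNA motif, while interferon gamma signals through Ifngr1 and Ifngr2 to genes with a gamma-activated site (GAS). The genes switched on include sensors of viral RNA and DNA, OAS enzymes that activate an RNA-degrading nuclease, IFIT proteins that bind foreign RNA, the ubiquitin-like modifier Isg15, guanylate-binding and IRG GTPases that attack vacuoles of intracellular pathogens, and restriction factors such as Bst2 (tetherin), which holds budding virus at the cell surface. In the lung these genes are known for defence against respiratory viruses. Irf1 and the guanylate-binding proteins respond strongly to interferon gamma, and the ISG15 system and the IFIT and OAS families mainly to type I and type III interferons.

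The ISRE core was searched as GAAA, any 2 bases and GAAA, and the gamma-activated site as TTC, any 3 bases and GAA, on both strands, within the RefSeq promoter windows of build GRCm38.p6, each of 250 bases before to 50 bases after a gene's start. Of 35 interferon-stimulated genes with such a window, 19 (54.3%) held the ISRE core, against 3.99% of 27025 genes with a window, and 11 (31.4%) held the GAS pattern, against 9.55%. Matches overlapped one another in 5 of the promoters with an ISRE core. The 250 bases before the start are shown for 4 genes that held the core and that differed in their response to OVA: Bst2 was higher, Gbp7 and Irgm2 were lower and Isg15 was not called. Each reads 5′ to 3′ along the gene's strand, and the capitals mark every match to the core or, on the other strand, to its reverse complement.
Bst2 promoter, chr8:71537473-71537722, minus strand: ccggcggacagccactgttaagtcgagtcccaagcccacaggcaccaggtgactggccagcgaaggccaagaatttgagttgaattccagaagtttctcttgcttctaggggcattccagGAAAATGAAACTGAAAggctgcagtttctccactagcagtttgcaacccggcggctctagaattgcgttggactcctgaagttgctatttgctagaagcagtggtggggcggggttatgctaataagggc
Isg15 promoter, chr4:156200819-156201068, minus strand: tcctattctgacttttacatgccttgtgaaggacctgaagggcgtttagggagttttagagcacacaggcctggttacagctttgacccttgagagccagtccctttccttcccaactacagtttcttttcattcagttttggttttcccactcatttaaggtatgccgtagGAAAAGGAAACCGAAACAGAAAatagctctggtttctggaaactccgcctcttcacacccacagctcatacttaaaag
Gbp7 promoter, chr3:142530086-142530335, plus strand: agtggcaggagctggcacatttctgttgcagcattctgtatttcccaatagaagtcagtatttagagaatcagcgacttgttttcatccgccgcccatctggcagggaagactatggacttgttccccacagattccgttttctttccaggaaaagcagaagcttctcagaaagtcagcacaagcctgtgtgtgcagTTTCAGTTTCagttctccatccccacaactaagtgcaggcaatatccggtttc
Irgm2 promoter, chr11:58214727-58214976, plus strand: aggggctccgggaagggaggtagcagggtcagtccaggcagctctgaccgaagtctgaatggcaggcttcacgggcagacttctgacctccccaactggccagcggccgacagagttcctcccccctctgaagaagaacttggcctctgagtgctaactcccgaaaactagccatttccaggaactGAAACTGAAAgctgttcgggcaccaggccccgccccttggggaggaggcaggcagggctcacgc
The core began 130 and 124 bases before the start of Bst2, with the pair overlapping, and 78, 72 and 66 bases before that of Isg15, with 3 overlapping matches in 1 run. It began 53 bases before the start of Gbp7, read on the other strand, and 64 bases before that of Irgm2. A match is a run of letters and not a measured binding site.

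The level of each gene is given as RPM, the reads on the gene per 1000000 reads of that library, counted on genes or elsewhere. The depth was 13827228 to 16671489 reads on genes in the Sham libraries, 13089691 to 17393579 in PM, 2298645 to 12185451 in Sham-OVA and 4324326 to 12355561 in PM-OVA, so that 1 read was worth 0.311 RPM in the shallowest library, Sham-OVA replicate 3. Reads on genes made up 83.0% to 92.4% of all reads in Sham, 88.2% to 91.3% in PM, 71.4% to 85.7% in Sham-OVA and 78.5% to 85.6% in PM-OVA, a share that moves with OVA and enters every RPM value. Genes with a transcript over 4000 bases held 43.3% to 52.2% of the RPM in Sham, 45.7% to 49.4% in PM, 28.2% to 32.4% in Sham-OVA and 27.6% to 39.1% in PM-OVA, which separates the challenged from the unchallenged libraries. Sham replicate 1 had 0.289 RPM of the female-specific transcript Xist and 54.0 RPM of the Y-linked gene Eif2s3y, although the study's methods give the RNA samples as female. Without this library 8 interferon-stimulated genes were called higher and 13 lower in Sham-OVA, against 9 and 14 with it.

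In unchallenged Sham lungs, 42 interferon-stimulated genes spanned a wide range of level when RPM was divided by the length of the longest transcript in kilobases. Samhd1, an enzyme that removes the nucleotides viruses copy with, was the most abundant at 70.4 ± 6.11 RPM per kilobase (SD, n = 7), followed by Bst2 at 65.5 ± 14.3 and Irf1 at 51.7 ± 9.11. Samhd1 and Bst2 did not differ beyond their spread, since the mean of Samhd1 lay within 1 SD of that of Bst2, and the 1-SD ranges of Bst2 and Irf1 overlapped. The next genes were Ifi35 at 35.4 ± 4.92 and Sp100, a nuclear body protein, at 23.5 ± 4.00 RPM per kilobase. At the other end stood Oas3 at 1.25 ± 0.512, Ifit3b at 1.13 ± 0.341, Ifit3 at 0.615 ± 0.162 and Oas1a at 0.124 ± 0.0841, of which Oas3 and Ifit3b did not differ beyond their spread. Isg15 stood at 6.39 ± 2.10 and Rsad2 (viperin) at 2.51 ± 0.930 RPM per kilobase, ranks 28 and 38 of the 42 genes.

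The first comparison asked how OVA challenge changed these genes in offspring of saline-treated dams. The response was mixed in direction: 9 of 41 interferon-stimulated genes were higher in Sham-OVA than in Sham, 14 were lower and 18 were not called, where called means an adjusted p under 0.05 in limma. OVA moved much of the transcriptome, so these counts stand beside 68.1% of all 16795 genes called, 20.6% higher and 47.5% lower. The median log2 fold change of the 41 genes was −0.46, against −0.48 over all genes tested, and 21 of them lay above that median. All fold changes are of RPM + 0.5. Scaled by the median of ratios, which centres the libraries on a typical gene, the same comparison gave 13 higher and 10 lower. The shares of all genes above belong to the unscaled fit, and those under this scaling are not given here.

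In offspring of PM2.5-exposed dams, 6 genes were higher in PM-OVA than in PM and 21 were lower, beside 65.3% of all genes called, 20.1% higher and 45.2% lower. The median was −0.59, against −0.43 over all genes, and 18 of the 41 genes lay above that median. Median-of-ratios scaling gave 10 higher and 14 lower, again without the shares of all genes under that scaling. Of the 41 genes, 6 were higher in both comparisons (Bst2, Epsti1, Ifi35, Irf1, Irf9 and Zbp1), 13 were lower in both, 10 were called in neither and 0 were called in opposite directions. The 2 comparisons share no library. Without PM-OVA replicates 3 and 4, which are shallow, 5 genes were higher and 9 lower, and only 2 PM-OVA libraries then remained.

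**Figure D1:**
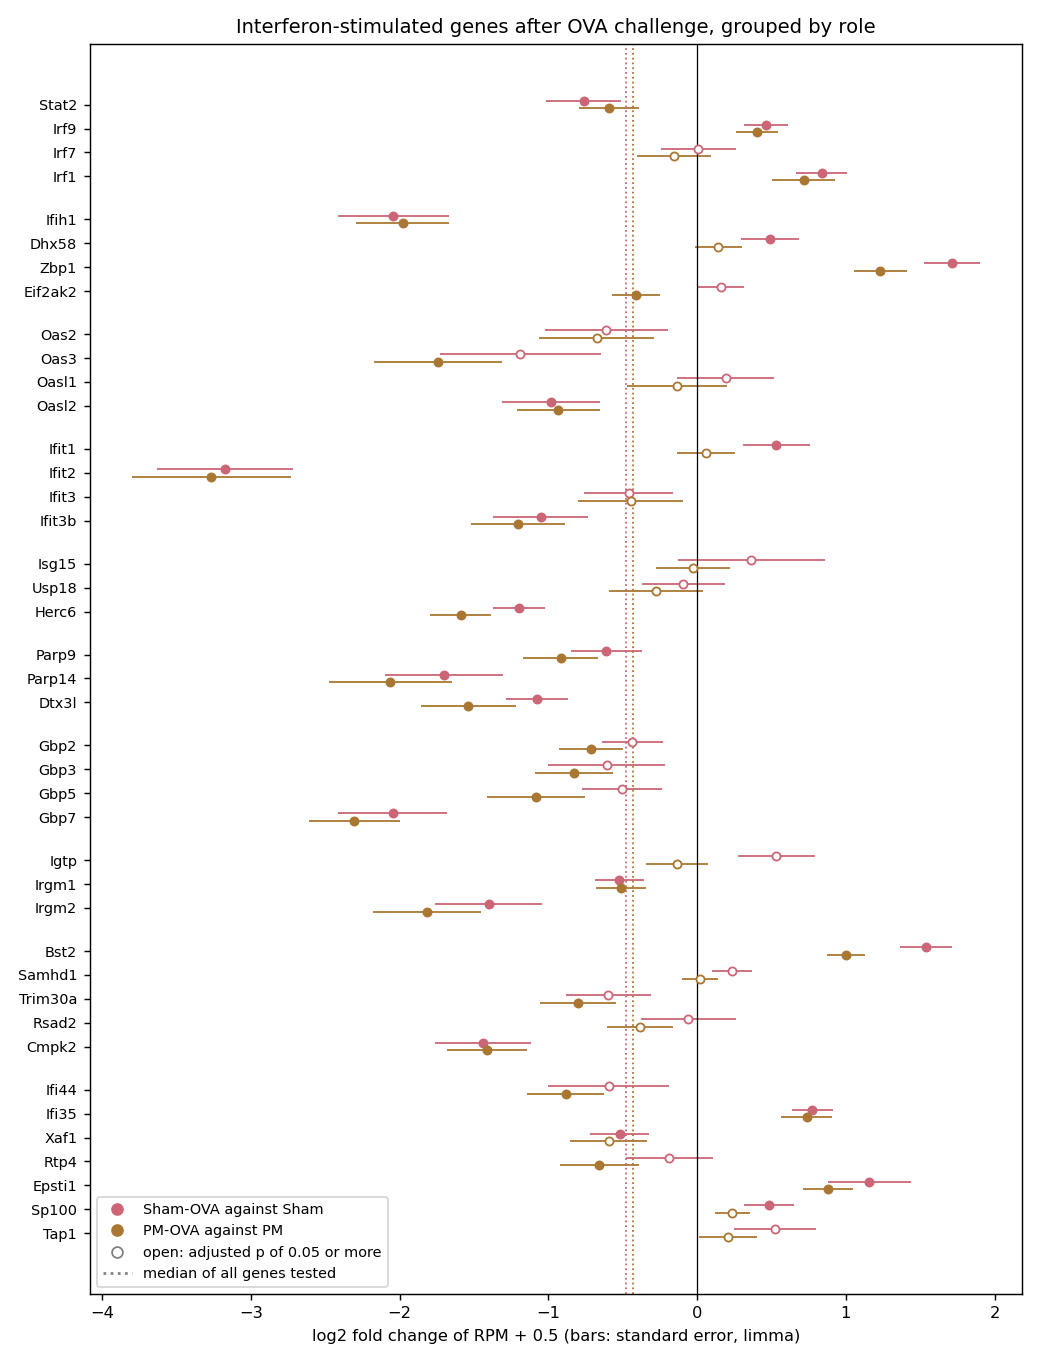
Each row is 1 of the 41 interferon-stimulated genes tested, grouped by role in the order of the text; points give the log2 fold change of RPM + 0.5 after OVA challenge in offspring of saline-treated (red) and PM2.5-exposed (brown) dams, bars its standard error, open points an adjusted p of 0.05 or more and dotted lines the medians of all genes tested. Zbp1 and Bst2 lie farthest to the right and Ifit2 farthest to the left in both comparisons.

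Among the transcription factors, the members of the type I complex parted. Irf9, its DNA-binding subunit, stood between 39.6 and 69.2 RPM in the Sham libraries (median 57.0) and at 72.9, 72.4, 75.5, 88.2 and 72.2 RPM in the 5 Sham-OVA libraries. These groups did not overlap, and Irf9 rose by 0.47 ± 0.15 (log2, standard error; adjusted p = 0.0121, limma). In the PM cohort it went from 46.2 to 59.6 RPM (median 53.8) to 56.4, 62.8, 83.1 and 82.8 RPM, a rise of 0.40 ± 0.14 (adjusted p = 0.0224) with 1 challenged library inside the unchallenged range, and without PM-OVA replicate 3 or 4 the adjusted p was 0.0743 or 0.0716.

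Stat2, the activating partner of Irf9, moved the other way. It stood between 45.3 and 75.8 RPM in Sham and at 45.1, 38.1, 14.6, 45.3 and 35.0 RPM in Sham-OVA, and fell by 0.76 on the log2 scale (standard error 0.25, adjusted p = 0.0150), with Sham-OVA replicate 3 far below the rest. In PM-OVA it stood at 47.7, 44.1, 20.6 and 32.0 RPM against 43.8 to 60.2 in PM and fell by 0.59 (standard error 0.20, adjusted p = 0.0211). Neither fall was called under median-of-ratios scaling, where the log2 fold changes were −0.40 and −0.23 (adjusted p = 0.0598 and 0.192), and the second was also lost without PM-OVA replicate 3 or 4 (adjusted p = 0.0708 and 0.0505).

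Irf1, a factor induced by interferon gamma among other signals, rose in both cohorts. It stood between 75.3 and 133.8 RPM in Sham and at 175, 167, 282, 166 and 206 RPM in Sham-OVA, without overlap, a log2 fold change of 0.84 ± 0.17 (adjusted p = 6.07e-04). In PM it ranged from 88.4 to 133.5 RPM and in PM-OVA it was at 114, 154, 219 and 255 RPM, a log2 fold change of 0.72 ± 0.21 (adjusted p = 0.00942), and without the 3 shallowest libraries this second value was 0.30 (adjusted p = 0.177). Irf7, the factor that amplifies type I interferon, was not called in either comparison (0.01 ± 0.25 and −0.16 ± 0.25), though edgeR and DESeq2 called it higher in Sham-OVA. Its highest value of all was 61.4 RPM in Sham-OVA replicate 4, against 17.1 to 39.2 RPM in the rest of that group.

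The sensors of foreign nucleic acid held both the largest rise and one of the largest falls of the 41 genes. Zbp1, a sensor of Z-form nucleic acids that triggers cell death, stood between 6.28 and 11.1 RPM in Sham (median 9.09) and at 35.5, 30.2, 22.1, 32.0 and 30.5 RPM in Sham-OVA. The groups did not overlap, and the log2 fold change was 1.71 ± 0.19 (adjusted p = 2.58e-06). In PM it ranged from 6.23 to 10.8 RPM and in PM-OVA it was at 21.4, 17.2, 17.4 and 22.3 RPM, again without overlap, with a log2 fold change of 1.23 ± 0.18 (adjusted p = 1.70e-04).

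Ifih1 (MDA5), which senses long double-stranded RNA, changed in the opposite direction. It stood between 31.8 and 50.03 RPM in Sham and at 16.1, 8.20, 2.17, 16.0 and 15.3 RPM in Sham-OVA, and in PM it ranged from 32.6 to 51.0 RPM against 20.8, 16.1, 6.51 and 5.45 RPM in PM-OVA. No challenged library reached an unchallenged one in either cohort, and Ifih1 fell by 2.04 (standard error 0.37, adjusted p = 2.24e-04) and by 1.98 (standard error 0.31, adjusted p = 2.56e-04) on the log2 scale. Dhx58 (LGP2), its regulator, rose by 0.49 ± 0.20 in Sham-OVA (adjusted p = 0.0381) and was not called in PM-OVA (0.14 ± 0.16), and 6 of 12 fits without 1 library (Sham replicates 2, 5, 6 and 7 and Sham-OVA replicates 1 and 4) lost the first call, while median-of-ratios scaling called both. Eif2ak2 (PKR), the kinase that halts translation when it binds viral RNA, was not called in Sham-OVA (0.16 ± 0.16) and had a log2 fold change of −0.41 ± 0.16 in PM-OVA (adjusted p = 0.0392), a call lost when any of 8 single libraries was left out. The PM-OVA call was also lost in 8 of 15 other settings, among them median-of-ratios scaling, quantile normalisation, edgeR and DESeq2. In Sham-OVA, 6 of 15 other settings called Eif2ak2 higher, these 4 among them.

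The IFIT family, whose members sit side by side on chromosome 19, did not move as a block. Ifit2 (19:34550694-34576419, GRCm38) had the largest fall of all 41 genes in both comparisons. It stood between 35.4 and 63.6 RPM in Sham (median 55.5) and at 10.01, 5.19, 0.621, 11.6 and 8.33 RPM in Sham-OVA, and fell by 3.17 on the log2 scale (standard error 0.46, adjusted p = 2.86e-05). In PM it ranged from 40.5 to 64.1 RPM and in PM-OVA it was at 18.5, 11.4, 3.19 and 0.908 RPM, and fell by 3.26 (standard error 0.53, adjusted p = 2.99e-04). Challenged and unchallenged libraries were separate in both cohorts.

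Its neighbour Ifit1 (19:34640871-34650009) was at 29.5, 23.3, 16.5, 50.3 and 23.8 RPM in Sham-OVA against 14.1 to 22.0 RPM in Sham, a log2 fold change of 0.53 ± 0.23 (adjusted p = 0.0477). That call rested on single libraries, since 10 of the 12 fits that left out 1 library lost it, and without Sham-OVA replicate 4 the value was 0.31. In PM-OVA Ifit1 was at 14.7, 26.4, 23.8 and 25.1 RPM against 16.9 to 27.6 in PM and was not called (0.06 ± 0.20). Ifit3 and Ifit3b are near-identical copies, with 31.7% and 27.4% of their 100-base windows shared, so reads on them are uncertain, and both were rare. Ifit3b fell by 1.05 and 1.20 on the log2 scale (standard errors 0.32 and 0.32, adjusted p = 0.00895 and 0.00525) from group means of 2.26 and 2.11 RPM. Its call in Sham-OVA was lost under quantile normalisation and in edgeR, among other settings. Ifit3 was not called in the main fits (−0.46 ± 0.30 and −0.45 ± 0.35). In the first comparison Ifit3 was called lower without Sham-OVA replicate 4 (−0.68, adjusted p = 0.0476) and with a trend on transcript length and GC content removed.

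Of the 4 OAS genes tested, 1 was called lower in Sham-OVA, 2 in PM-OVA and 0 higher in either, beside 47.5% and 45.2% of all genes lower and 20.6% and 20.1% higher. Oasl2 fell in both cohorts, by 0.98 and 0.93 on the log2 scale (standard errors 0.33 and 0.28, adjusted p = 0.0158 and 0.0104), and both calls were lost in edgeR. Oas3 was at 3.61, 3.39, 0, 8.60 and 1.31 RPM in Sham-OVA against 2.91 to 10.6 RPM in Sham, with a log2 fold change of −1.19 ± 0.54 that was not called (adjusted p = 0.0632; without Sham-OVA replicate 4, −1.63 and 0.0104). It was at 3.70, 3.09, 0.664 and 0.363 RPM in PM-OVA against 3.48 to 9.16 in PM, and there it fell by 1.74 (standard error 0.43, adjusted p = 0.00354). Oas2 and Oasl1 were not called in either comparison in the main fit. Oas2 was called lower without Sham-OVA replicate 4 in the first comparison, and without PM-OVA replicate 1 or with array weights in the second. Oas1a was at or under 0.856 RPM in every library, and 40.9% of its windows are shared with Oas1g.

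In the ISG15 system, the modifier itself and its deconjugating enzyme were not called, while the ligase was. Isg15 was at 13.3, 5.19, 0.932, 19.1 and 5.19 RPM in Sham-OVA, a spread that enclosed the whole Sham range of 2.77 to 7.10 RPM, with a log2 fold change of 0.36 ± 0.50. It was at 5.17, 8.27, 3.32 and 3.63 RPM in PM-OVA against 3.63 to 6.94 in PM (−0.03 ± 0.25). Without Sham-OVA replicate 3, where its level came from the fewest reads, Isg15 was called higher in Sham-OVA at 0.92 (adjusted p = 0.0176). It was also called higher there with all libraries kept by edgeR, by DESeq2 and with array weights. Usp18 was not called (−0.09 ± 0.28 and −0.28 ± 0.31). Herc6, the main ISG15 ligase of mice, went from 19.1 to 30.3 RPM in Sham to 10.98, 10.91, 7.77, 14.9 and 10.96 RPM in Sham-OVA and fell by 1.20 (standard error 0.17, adjusted p = 3.23e-05), and by 1.59 in the PM cohort (standard error 0.20, adjusted p = 7.61e-05).

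All 3 genes of the ADP-ribosylation group on chromosome 16 were called lower in both cohorts, where 47.5% of all genes in Sham-OVA and 45.2% in PM-OVA were. Parp14, which adds single ADP-ribose units to proteins, stood between 87.9 and 105.4 RPM in Sham and at 57.8, 38.6, 6.21, 46.9 and 40.2 RPM in Sham-OVA, and fell by 1.70 on the log2 scale (standard error 0.40, adjusted p = 0.00159). In PM-OVA it was at 71.8, 38.2, 9.82 and 13.4 RPM against 75.3 to 116.2 in PM and fell by 2.06 (standard error 0.42, adjusted p = 0.00103). Dtx3l fell by 1.08 and 1.54, and its partner Parp9 by 0.61 and 0.92 (adjusted p = 0.0341 and 0.00704), and these 2 genes overlap on opposite strands. The Parp9 call in Sham-OVA was lost in 6 of the 12 fits that left out 1 library (Sham replicates 1, 2, 4, 5 and 6 and Sham-OVA replicate 2), and under median-of-ratios scaling, quantile normalisation, edgeR and DESeq2.

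Of the 4 guanylate-binding proteins, 1 was called lower in Sham-OVA and all 4 in PM-OVA, beside 47.5% and 45.2% of all genes, and Gbp7 (3:142530342-142550149) fell furthest. It stood between 72.9 and 96.9 RPM in Sham and at 36.2, 24.4, 4.66, 29.3 and 27.3 RPM in Sham-OVA, and between 57.7 and 104.1 RPM in PM and at 35.5, 24.7, 9.82 and 11.1 RPM in PM-OVA. The groups did not overlap, and the falls were 2.05 (standard error 0.37, adjusted p = 1.92e-04) and 2.30 (standard error 0.31, adjusted p = 9.98e-05) on the log2 scale. Gbp2, Gbp3 and Gbp5 were called lower in the PM cohort, at −0.71, −0.83 and −1.08 on the log2 scale, and in Sham-OVA they were at −0.44, −0.61 and −0.51 and not called. The calls of Gbp2 and Gbp3 were lost under median-of-ratios scaling, quantile normalisation, edgeR and DESeq2, that of Gbp5 in edgeR, and that of Gbp3 also without PM-OVA replicate 3 or 4. Without Sham-OVA replicate 1, Gbp2 and Gbp5 were called lower in Sham-OVA as well. Of the IRG GTPases, Irgm2 was at 28.7, 21.1, 4.66, 26.2 and 24.8 RPM in Sham-OVA against 35.5 to 68.3 in Sham, and fell by 1.40 and, in the PM cohort, by 1.81 (standard errors 0.36 and 0.36, adjusted p = 0.00305 and 9.77e-04). Irgm1 fell by 0.52 and 0.51, less than 1 standard error below the median of all genes, and the call in PM-OVA was lost without replicate 4 of that group (adjusted p = 0.0641). Both Irgm1 calls were lost under median-of-ratios scaling, quantile normalisation, edgeR and DESeq2. Igtp, which overlaps Irgm2, was called in neither (0.53 ± 0.26 and −0.13 ± 0.21), but higher in Sham-OVA under median-of-ratios scaling, in edgeR and DESeq2 and without Sham-OVA replicate 3.

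Among the restriction factors, Bst2 (8:71534255-71537456) rose while Cmpk2, a mitochondrial nucleotide kinase next to Rsad2 on chromosome 12, fell. Bst2 stood between 36.7 and 67.5 RPM in Sham and at 161, 154, 123, 192 and 123 RPM in Sham-OVA, a log2 fold change of 1.54 ± 0.18 (adjusted p = 3.76e-06). In PM it ranged from 43.3 to 65.0 RPM and in PM-OVA it was at 93.8, 109, 105 and 116 RPM, a log2 fold change of 1.00 ± 0.13 (adjusted p = 8.62e-05). No library of a challenged group fell into its unchallenged range. Cmpk2 fell by 1.44 and 1.41 (standard errors 0.32 and 0.27, adjusted p = 0.00113 and 7.37e-04), Trim30a was called lower in PM-OVA alone, and Samhd1 and Rsad2 were not called. The Trim30a call was lost without PM-OVA replicate 3 and in edgeR and DESeq2, and Trim30a was called lower in Sham-OVA without replicate 1 or 4 of that group. Samhd1 was called higher in both cohorts under median-of-ratios scaling, in edgeR and DESeq2, and in Sham-OVA also without replicate 3.

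Of the remaining induced genes, Epsti1 and Ifi35 rose in both cohorts. Epsti1 was at 19.9, 11.3, 7.15, 18.3 and 12.3 RPM in Sham-OVA against 3.52 to 9.64 in Sham, and at 10.1, 13.1, 10.6 and 10.3 RPM in PM-OVA against 4.34 to 6.60 in PM, with log2 fold changes of 1.16 ± 0.28 and 0.88 ± 0.17 (adjusted p = 0.00194 and 7.13e-04). Ifi35 rose by 0.78 ± 0.14 and 0.74 ± 0.17 (adjusted p = 1.90e-04 and 0.00243). Sp100 was called higher in Sham-OVA alone (0.48 ± 0.17), Xaf1 lower in Sham-OVA alone, and Ifi44 and Rtp4 lower in PM-OVA alone. The Ifi44 call was lost under quantile normalisation, in edgeR, with a trend on transcript length and GC content removed and without the 3 shallowest libraries. Leaving out 1 library ended the Sp100 call in 2 of 12 fits (Sham-OVA replicates 1 and 4), the Xaf1 call in 5 of 12 (Sham replicates 2, 3 and 7 and Sham-OVA replicates 2 and 5) and the Rtp4 call in 7 of 11 (PM replicates 1, 2, 3, 4 and 7 and PM-OVA replicates 3 and 4). Median-of-ratios scaling called Sp100 higher in PM-OVA as well and called neither Xaf1 nor Rtp4, and without PM-OVA replicate 1 or 2 Xaf1 was called lower there too. The interaction test given further on asks whether a gene called in 1 cohort alone responded differently in the other. It called 0 genes in the main fit and 22 with array weights, a count given further on beside the share of all genes called under those weights. With 4 PM-OVA and 5 Sham-OVA libraries, the 0 does not show that the cohorts responded alike. Tap1, the peptide transporter of antigen presentation, was not called (0.52 ± 0.27 and 0.21 ± 0.19), but it was called higher in both cohorts under median-of-ratios scaling, quantile normalisation, edgeR and DESeq2, and in Sham-OVA without replicate 3.

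**Figure D2:**
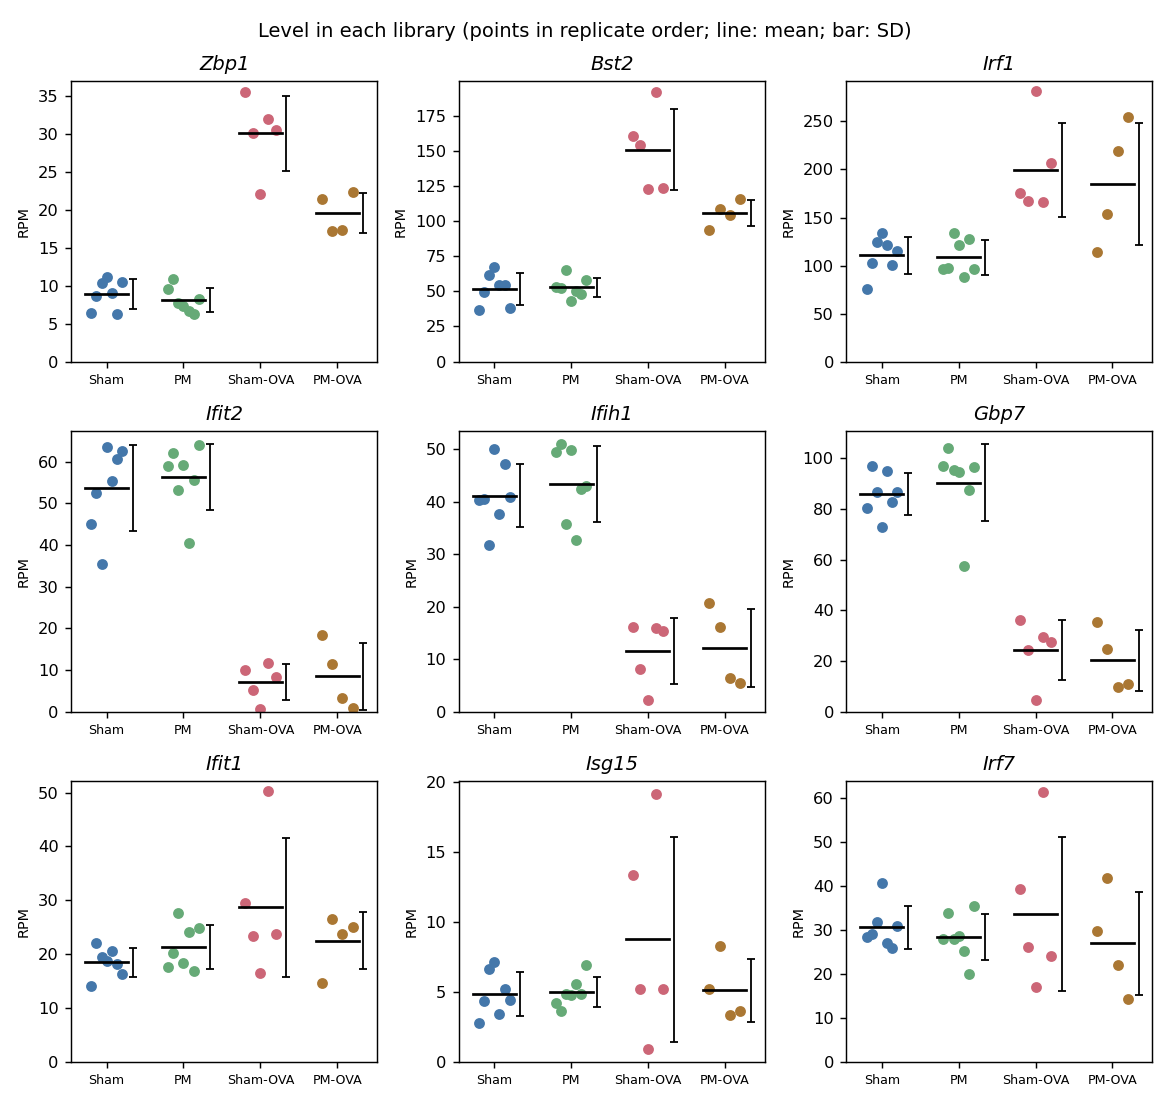
Level in RPM (linear axes from 0) of 9 interferon-stimulated genes in each of the 23 libraries, with 1 point for each library in replicate order, lines for group means and bars for the SD. Zbp1, Bst2 and Irf1 are higher in the challenged groups, Ifit2, Ifih1 and Gbp7 lower, and Ifit1, Isg15 and Irf7 reach their highest values in Sham-OVA replicate 4.

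Challenged and unchallenged libraries did not overlap at all for 5 genes that were higher in Sham-OVA (Zbp1, Bst2, Irf1, Ifi35 and Irf9), beside 13.2% of all genes tested, and for 8 that were lower (Ifih1, Gbp7, Herc6, Irgm2, Cmpk2, Parp14, Dtx3l and Ifit2), beside 35%. In the PM cohort 3 genes were higher without overlap (Zbp1, Bst2 and Epsti1), beside 13.3%, and 8 were lower, beside 28.6%. At the stricter rule of an adjusted p under 0.000001 and a log2 fold change above 1 in size, 0 of 41 genes were called in either comparison, beside 4.51% and 0.286% of all genes.

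Libraries differed within the challenged groups in the level of the whole set. The mean of log2(RPM + 0.5) over the 41 genes ranged from 4.45 to 4.96 in Sham and from 4.55 to 4.88 in PM, but from 3.38 to 5.04 in Sham-OVA and from 3.74 to 4.64 in PM-OVA. Sham-OVA replicate 4 was the highest of its group for 28 of 42 genes, and replicate 3, the shallowest library, was the lowest for 35. Among PM-OVA, replicate 1 was the highest for 28 genes, and replicates 3 and 4 were the lowest for 18 and 17. The 3 libraries with the lowest mean were the 3 shallowest and also had the 3 lowest shares of RPM from genes with long transcripts, from 27.6% to 28.2%. The part of depth and transcript length in these levels was not tested.

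**Figure D3:**
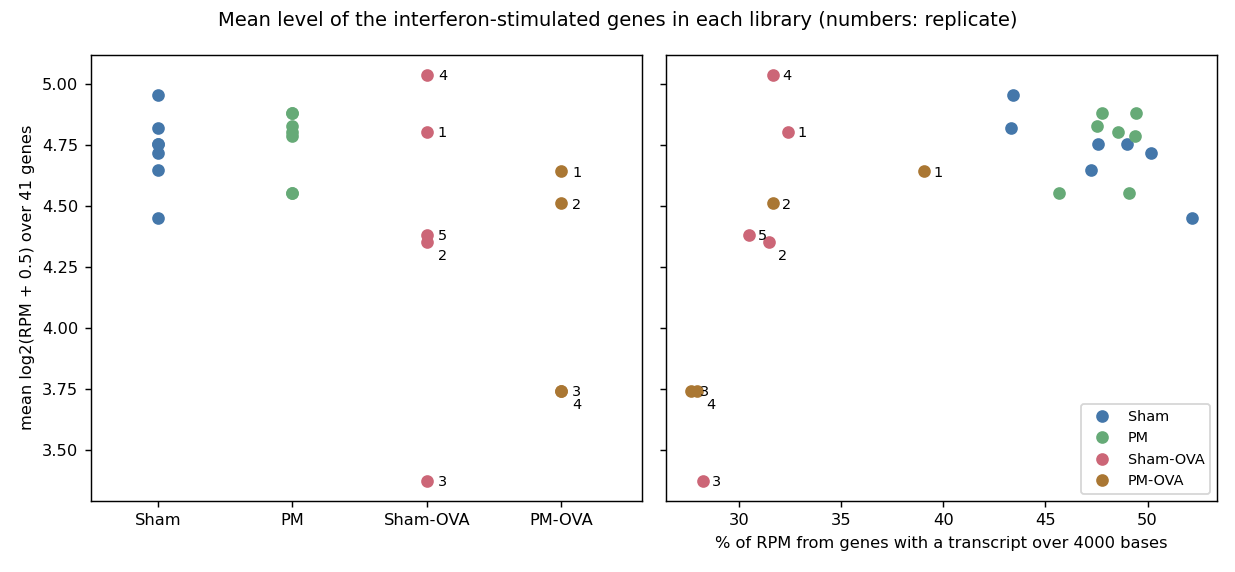
Mean log2(RPM + 0.5) over the 41 interferon-stimulated genes in each library, by group (left) and against the percentage of RPM from genes with a transcript over 4000 bases (right), with replicate numbers for the challenged libraries. The lowest points are Sham-OVA replicate 3 with replicates 3 and 4 of PM-OVA, at or below 3.74, and Sham-OVA replicate 4 lies highest, at 5.04.

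Transcript length moved with the response to OVA. Over all 16537 genes with a length, longer genes had lower fold changes (Pearson's r = −0.33 in Sham-OVA and −0.36 in PM-OVA), and over the 41 genes r was −0.55 and −0.56. These correlations are across genes, which share libraries and are not independent, and are given as a description. Genes called higher had a median longest transcript of 2412 and 2003.5 bases in the 2 comparisons, and those called lower 3825 and 3818 bases. The spread was wide at a given length: among 24 genes of 2 to 4 kilobases, 6 were higher and 8 lower in Sham-OVA, and 3 and 11 in PM-OVA.

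With the trend on length and GC content taken out of all genes, an alternative added after the data were seen, 9 genes were higher and 13 lower in Sham-OVA and 4 and 18 in PM-OVA. The shares of all genes higher and lower under that setting are not given here. Zbp1 stayed at 1.68 and 1.20 and Ifit2 at −2.80 and −2.85, both called. Bst2, whose longest transcript has 792 bases, went to 0.65 in Sham-OVA (adjusted p = 0.00523) and to 0.12 in PM-OVA (adjusted p = 0.456). Ifi35, with 1362 bases, went to 0.13 and 0.09 and was called in neither, and Irf1 in PM-OVA went to 0.33 (adjusted p = 0.129).

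**Figure D4:**
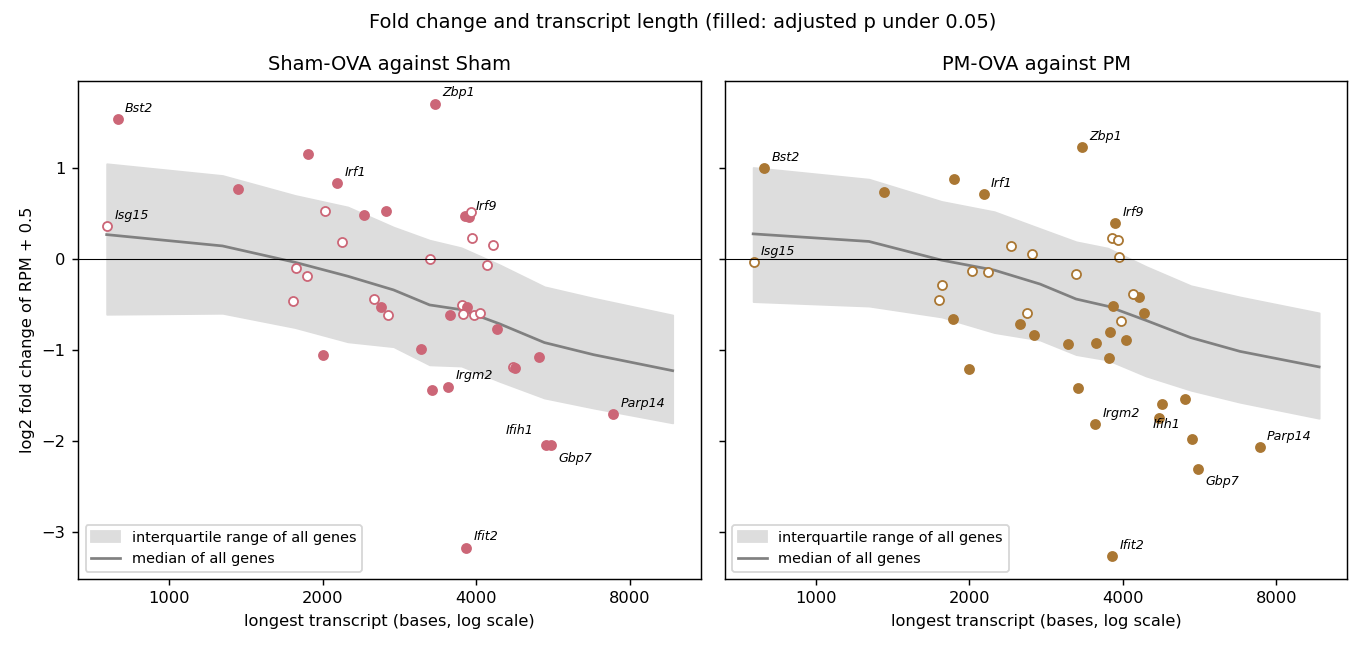
Log2 fold change of RPM + 0.5 after OVA challenge against the longest transcript in bases (log axis) for the 41 interferon-stimulated genes (points, filled where the adjusted p was under 0.05), with the median (line) and the interquartile range (grey) of all genes in 11 length bins. Zbp1 lies above and Ifit2 below the interquartile range of genes of their length in both panels, and Isg15 lies within it.

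Some genes were called the same way in every alternative run, the strict threshold apart and the fits without 1 library included. In Sham-OVA these were 5 higher genes (Bst2, Epsti1, Irf1, Irf9 and Zbp1) and 8 lower genes (Cmpk2, Dtx3l, Gbp7, Herc6, Ifih1, Ifit2, Irgm2 and Parp14) over 27 alternatives. In PM-OVA they were 2 higher genes (Epsti1 and Zbp1) and 9 lower genes (the same 8 and Ifit3b) over 26 alternatives. The remaining calls depended on at least 1 setting or library. How many of all genes kept their call in every alternative was not counted, so these numbers have no share of all genes beside them.

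The ISRE core was found among genes called in either direction. Among genes with a promoter window, the ISRE core was present in 2 of 7 called higher and 6 of 12 called lower in Sham-OVA, and in 1 of 5 called higher and 12 of 18 called lower in PM-OVA. The GAS pattern was present in 3 of 7 and 3 of 12, and in 3 of 5 and 5 of 18. Bst2, which rose, and Gbp7 and Irgm2, which fell, all carry the ISRE core shown above, and Ifit2 has no match to the ISRE core in its windows. The GAS pattern was present in Ifit2 and also in Bst2, Gbp7 and Irgm2.

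The rest of the interferon pathway was read from a list of 99 other genes, of which 96 were in the table and 67 were tested. In Sham-OVA 19 were higher, 26 lower and 22 not called, and in PM-OVA 16, 32 and 19, beside 20.6% higher and 47.5% lower of all genes in Sham-OVA and 20.1% and 45.2% in PM-OVA. Few or no reads were counted on the ligands: of 21 interferon genes in the list, 20, Ifnb1 among them, were at 0 in all 23 libraries, and Ifng reached at most 0.657 RPM. The Ifna genes are close copies of one another, and 5 other genes of the list (Apol9b, Gbp6, Ifi213, Tgtp1 and Tgtp2), several of which also have close copies, were at 0 throughout too. Whether reads that match several copies were left out of the counts was not tested, so a 0 there is the listed value and not a measure of absence. Ifng was at 0 to 0.507 RPM in Sham, 0 to 0.657 in Sham-OVA, 0 to 0.415 in PM and 0 to 0.336 in PM-OVA, with overlapping groups, and was too low to test.

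Of the 6 receptor genes, 2 were higher, 2 lower and 2 not called in each cohort. The shares of all genes were 20.6% higher and 47.5% lower in Sham-OVA and 20.1% and 45.2% in PM-OVA. Ifnar1 fell by 1.52 and 1.66 on the log2 scale (adjusted p = 6.62e-05 and 0.00163) and Ifngr1 by 1.37 and 1.34 (adjusted p = 0.00105 and 0.00169), while Ifngr2 rose by 1.94 and 1.63 (adjusted p = 2.75e-07 and 2.07e-05) and Ifnar2 was not called. Of the type III receptor, Il10rb rose by 0.53 and 0.54 (adjusted p = 0.00575 and 0.00436) and Ifnlr1 was not called (−0.44 ± 0.20 and −0.23 ± 0.18). Ifnar1 stood between 85.0 and 124 RPM in Sham and between 15.8 and 58.1 RPM in Sham-OVA, without overlap. Of the kinases, Jak1 and Jak2 fell in both cohorts and Tyk2 was not called.

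All 5 inhibitors were called in both cohorts, 3 up and 2 down, beside 68.1% of all genes called in Sham-OVA and 65.3% in PM-OVA. Socs1, which blocks the receptor kinases, went from between 3.70 and 9.51 RPM in Sham to between 36.4 and 70.0 RPM in Sham-OVA and rose by 2.96 ± 0.23 and 2.51 ± 0.25 (adjusted p = 1.33e-07 and 1.44e-05), the largest rise of the list in both. Ptpn2 and Ptpn6, phosphatases that switch the pathway off, rose, and Socs3 and Pias1 fell. Psmb10, an immunoproteasome subunit, rose by 2.18 ± 0.23 and 2.10 ± 0.38 (adjusted p = 1.62e-06 and 5.74e-04). Gbp9 had the largest fall, by 2.61 and 2.88 (adjusted p = 6.39e-07 and 2.01e-04), from between 16.2 and 22.2 RPM in Sham to between 1.24 and 4.93 RPM in Sham-OVA. Tlr9, which senses bacterial and viral DNA in endosomes, fell by 2.02 and 2.47 (adjusted p = 1.27e-04 and 0.00109).

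Genes that mark other cell types moved with the OVA response too. The 6 interstitial macrophage markers all rose in both cohorts, their summed level going from 112.5 to 210.3 RPM in Sham to 1497 to 2336 RPM in Sham-OVA. Of 6 natural killer cell markers tested (Klra8, a 7th, was at 0 in every library), 5 fell in Sham-OVA and 6 in PM-OVA, from summed levels of 64.1 to 176.6 RPM in Sham to 21.4 to 100.3 RPM in Sham-OVA, so the groups overlapped. The 8 markers of plasmacytoid dendritic cells, known as strong producers of type I interferon, overlapped as well, at 307.0 to 354.8 RPM in Sham and 229.0 to 406.2 RPM in Sham-OVA. Tcf4, a broadly expressed factor, made up 70.9% to 90.3% of that sum in these groups, and without it the other 7 summed to 31.8 to 78.8 RPM in Sham and 37.9 to 118.2 RPM in Sham-OVA. Of the 8 markers, 2 were higher (Klk1 and Spib) and 2 lower (Ccr9 and Runx2) in Sham-OVA, and 1 was higher and 3 lower in PM-OVA. Of 7 capillary endothelial markers, 4 were lower and 2 higher in each cohort. All these counts stand beside 20.6% of all genes higher and 47.5% lower in Sham-OVA, and 20.1% and 45.2% in PM-OVA. Marker lists of monocytes, alveolar macrophages, T cells, plasma cells, epithelial cells and the type 2 response were read as well and are not given here. The part of cell composition in the values of the interferon-stimulated genes was not tested.

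The next comparison asked whether maternal PM2.5 alone left a mark on these genes in unchallenged adult offspring. Of 41 genes, 0 were called between PM and Sham by limma, beside 0% of all genes, and 0 had an unadjusted p under 0.05, beside 4.35% of all genes, and edgeR and DESeq2 also called 0. The median log2 fold change was 0.05, against 0.02 over all genes, and 26 of 41 were above 0. The smallest unadjusted p belonged to Eif2ak2, at 0.15 ± 0.09 (adjusted p = 0.898), followed by Ifit1 at 0.20 ± 0.12 and Irgm1 at 0.16 ± 0.12. Ifit2, which fell furthest under OVA, was at 0.08 ± 0.13 and Isg15 at 0.07 ± 0.19. No gene of the set had groups without overlap, beside 0% of all genes in the higher and 0.00595% in the lower direction.

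Between the challenged groups, PM-OVA had lower mean values than Sham-OVA for most of the genes, none beyond the threshold. The log2 fold change was below 0 for 36 of 41 genes, with a median of −0.23 against 0.01 over all genes tested, and 0 were called by limma, edgeR or DESeq2, beside 0% of all genes. The library means over the 41 genes overlapped, at 3.74 to 4.64 in PM-OVA (SD 0.485) and 3.38 to 5.04 in Sham-OVA (SD 0.637). PM-OVA replicates 3 and 4 and Sham-OVA replicate 3, the shallowest libraries, had the lowest of these means. Their part in the difference between the groups was not tested. An unadjusted p under 0.05 was found for 2 genes, beside 1.86% of all genes. Zbp1 had the largest difference, −0.60 ± 0.20 (unadjusted p = 0.0122, adjusted p = 1), and its ranges of 17.2 to 22.3 RPM in PM-OVA and 22.1 to 35.5 RPM in Sham-OVA overlapped at their edges. Bst2 was at −0.49 ± 0.17 (unadjusted p = 0.0156, adjusted p = 1), with 93.8 to 116 RPM in PM-OVA and 123 to 192 RPM in Sham-OVA, the single gene whose groups did not overlap, beside 0.298% of all genes.

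**Figure D5:**
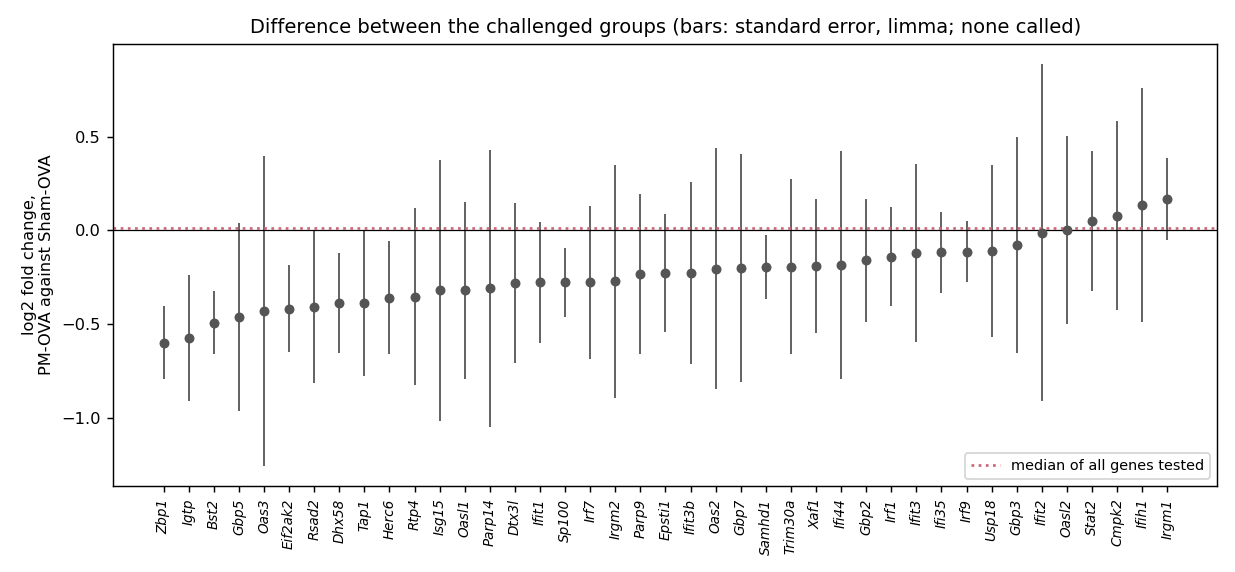
Log2 fold change of RPM + 0.5 between PM-OVA (n = 4) and Sham-OVA (n = 5) for the 41 interferon-stimulated genes, sorted, with standard errors and the median of all genes tested as a dotted line. 36 of the 41 points lie below 0 and 0 were called.

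The interaction asked whether the response to OVA differed between offspring of PM2.5-exposed and saline-treated dams. It was below 0 for 35 of 41 genes, with a median of −0.28 against −0.01 over all genes, and 0 genes were called, beside 0% of all genes. An unadjusted p under 0.05 was found for 2 genes, Eif2ak2 at −0.57 ± 0.22 (adjusted p = 0.716) and Bst2 at −0.54 ± 0.22 (adjusted p = 0.841), beside 5.08% of all genes, and Zbp1 was at −0.48 ± 0.25 (adjusted p = 1). All 41 genes were read from the same libraries, and the interaction and the comparison of the challenged groups use the same challenged libraries, so these counts of signs are not separate observations. With array weights, which count libraries less the more they deviate from their group, 22 genes were called with an interaction below 0, beside 27.5% of all genes called in either direction under the same weights.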

How the data were processed

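Poly(A) RNA of 23 lung libraries was sequenced from stranded mRNA preparations. Per the study's methods, the authors trimmed the reads, aligned them with Bowtie2, which does not split reads over introns, and counted them per gene in SeqMonk, and the sample labels name the mouse build mm10. The deposited table is named for RPKM, but its values are RPM: the authors' values in each library were whole multiples of 1 read for 100% of genes (tolerance 0.01), so whole reads were recovered, and the step gives the total reads behind each library. On these reads edgeR called 11253 genes for OVA in the Sham cohort, with 10215 for OVA in the PM cohort. 0 value columns were left unmapped.

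A gene entered the tests if 4 or more libraries reached 0.5 RPM. The tests were made in limma (version 3.58.1, R 4.3.3) on log2(RPM + 0.5), pairwise for each comparison and with all 23 libraries for the interaction, with Benjamini-Hochberg adjustment over 16795 genes. Samples were grouped by their labels. The labels do not tie replicates to litters, so p-values measure the spread between these libraries. The replicate numbers were not taken to pair samples. Alternatives were edgeR 4.0.16 and DESeq2 1.42.0 on the recovered reads, other scalings, filters, pseudocounts (0.1 and 1), 1 depth and left-out libraries. Gene positions and lengths are from GENCODE M21, and promoters from RefSeq.

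The 44 genes and all lists were chosen with earlier results of these data known. Genes named in full were the 6 highest and 6 lowest by mean fold change over both OVA comparisons, the 3 smallest p-values of each other comparison, Stat2, Irf9, Irf7, Irf1, the Ifit3 pair and Isg15, with every gene accounted for. From the pathway list, Ifng, Ifnb1, Ifnar1, Ifngr1 and the 2 largest rises and falls were named by rule, which also held a gene that is not reported here; Ifnar2, Ifngr2, Jak1, Jak2, Tyk2 and the other inhibitors were named after their values were seen.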

Additional observations from a re-analysis of the deposited data

Results flagged for a closer look

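In each group of 4 to 10 libraries, the gap between the highest or lowest library and its nearest neighbour was divided by the range of the group and compared with Dixon's 95% critical value. Of 80 groups examined over the named genes, 11 held such a library. The genes were read from the same libraries, so the groups are not independent and the count was not set against a chance rate. Sham-OVA replicate 3 was the low library for Gbp7 (0.803, at 4.66 RPM), Irgm2 (0.827, at 4.66 RPM), Parp14 (0.815, at 6.21 RPM) and Stat2 (0.769, at 14.6 RPM). PM replicate 5 was the low library for Gbp7 (0.706, at 57.7 RPM), Ifit2 (0.592, at 40.5 RPM) and Parp14 (0.77, at 75.3 RPM). PM replicate 6 was low for Epsti1 (0.57, at 4.34 RPM), Sham replicate 1 for Ifit3 (0.787, at 0.462 RPM) and Sham replicate 3 for Parp14 (0.774, at 87.9 RPM). Sham-OVA replicate 4 was the high library for Irf9 (0.779, at 88.2 RPM).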

How the results depend on the processing

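In Sham-OVA against Sham the number of interferon-stimulated genes called was 16 to 28 over the alternatives other than the strict threshold (main 23), and 0 at the strict threshold. The median log2 fold change of −0.46 turned to 0.043 with array weights and 0.036 with edgeR. In PM-OVA against PM (main 27) it was 0 at the strict threshold and 14 without the 3 shallowest libraries, an alternative added after seeing the data. The interaction had 22 genes called with array weights, a count given above beside the share of all genes under those weights, and 0 in every other fit. Among single genes, Eif2ak2 in PM-OVA went to 0.00124 with quantile normalisation and to 0.0163 without the length and GC trend, both opposite in sign to its call, and the interaction of Ifih1 went to −1.03 with array weights (adjusted p = 0.0168) from 0.06.

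Splits into higher and lower genes moved with scaling, and the shares of all genes higher and lower under each setting are not given here. In Sham-OVA they were 13 and 9 with quantile normalisation, 15 and 8 with edgeR, 15 and 9 with DESeq2 and 15 and 13 with array weights, and in PM-OVA 9 and 13, 10 and 11, 10 and 14 and 6 and 23. Leaving out 1 library gave 20 to 27 called genes in Sham-OVA and 21 to 29 in PM-OVA, with medians of −0.56 to −0.14 and −0.74 to −0.40, and 0 in PM against Sham, in PM-OVA against Sham-OVA and in the interaction. Samples with the same replicate number deviated together with r above 0.1 in 1 of 5 pairs for Sham-OVA against Sham 0 of 4 for PM-OVA against PM, 1 of 7 for PM against Sham and 3 of 4 for PM-OVA against Sham-OVA (r from −0.31 to 0.62). Since not every pair was above 0.1 in any comparison, the numbers were not taken to pair samples. These numbers are those of the sample titles, and most challenged libraries carry another number in their library name. A pairing by library name was therefore not tested. With the replicate block 16 genes were called in Sham-OVA and 23 in PM-OVA, and 0 in the other 3 comparisons. At 1 read depth 17 and 26 were called. Of the values of single called genes under all alternatives, 750 kept direction and call, 69 lost the call and 2 turned direction, and the causes were not tested.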

Other observations

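Some other genes of the pathway list, named after their values were seen, are given as values. The antigen-processing genes Psmb8, Psmb9, Tap2 and Tapbp rose in both cohorts, Psmb8 by 1.96 and 1.56, Psmb9 by 2.20 and 1.88, Tap2 by 2.12 and 2.00 and Tapbp by 1.04 and 0.92 on the log2 scale, in Sham-OVA and PM-OVA, each called in the main limma fit. Tap1 was not called in that fit in either cohort. It was called higher in both under median-of-ratios scaling, quantile normalisation, edgeR and DESeq2. The chemokine genes Cxcl9 and Cxcl10, which draw T cells bearing Cxcr3, rose by 2.00 and 1.61 and by 2.18 and 1.26, from group means of 0.300 and 1.29 RPM in Sham. The tripartite-motif genes Trim21 and Trim25 fell by 1.63 and 1.20 and by 0.99 and 1.09. No test compares these genes with one another.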
